A study of Mus musculus with 28 samples.

Results

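Cell polarity genes of the Discs large, Scribble, Lethal giant larvae, Par and Mark families were followed through 28 RNA-seq libraries of mouse liver in which FAK was deleted from epithelial cells. The 10 genes, Dlg1, Dlg3, Dlg5, Scrib, Llgl1, Llgl2, Pard3, Pard6b, Prkci and Mark2, were chosen by symbol from 35275 genes in each of the deposited tables. All 10 passed the filter on low counts in both experiments, with between 60 and 2104 counts in any library. All mice were FVB animals with both copies of Ptk2, the gene of FAK, flanked by loxP sites (FAKfl/fl). The unfed groups were isolated hepatocytes and whole-liver tissue of KO mice with Alb-Cre and of WT mice without it, aged 6 to 8 weeks, with 4 libraries each. The fed groups were whole livers of mice given a diet with 0.1% DDC, a porphyrinogenic compound that causes bile duct injury and periportal scarring, for 4 to 8 weeks, with 3 libraries each. Bred KO mice carried Alb-Cre and Bred WT mice did not. Virus KO mice were given an AAV8 vector with Cre under the TBG promoter, and Virus WT mice its Null counterpart without Cre. Alb-Cre acts from fetal liver onward in hepatocytes and cholangiocytes, whereas the TBG vector acts in hepatocytes only and was given 2 weeks before the diet. The ages of the fed mice were not given in the sources used here.

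Hepatocytes are polarized in an unusual way, with bile canaliculi as apical surfaces between neighboring cells and basal surfaces on the sinusoids. In epithelia the Par complex of Par3, Par6 and atypical protein kinase C defines the apical side, the Scribble, Dlg and Lgl proteins define the basolateral side, and each set restricts the other, in part through phosphorylation of Lgl and Par3. Par1 kinases, among them the product of Mark2, act on the basolateral side. Par1b, the product of Mark2, is known to steer cultured epithelial cells between canalicular and columnar arrangements of the lumen.

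On build mm10 the Discs large genes are Dlg1 (ENSMUSG00000022770, chr16:31663443-31873356, plus strand), Dlg3 (ENSMUSG00000000881, chrX:100767722-100818410, plus strand) and Dlg5 (ENSMUSG00000021782, chr14:24133953-24245920, minus strand). The other basolateral genes are Scrib (ENSMUSG00000022568, chr15:76047158-76069784, minus strand), Llgl1 (ENSMUSG00000020536, chr11:60699723-60714186, plus strand) and Llgl2 (ENSMUSG00000020782, chr11:115824049-115855780, plus strand). The Par complex genes are Pard3 (ENSMUSG00000025812, chr8:127063893-127612286, plus strand), Pard6b (ENSMUSG00000044641, chr2:168081004-168101203, plus strand) and Prkci (ENSMUSG00000037643, chr3:30995747-31052741, plus strand), and the Par1 kinase gene is Mark2 (ENSMUSG00000024969, chr19:7275396-7341860, minus strand).

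Upstream stretches are shown, to place the genes in the genome, for the 3 members whose KO effect differed between the deletion methods (Dlg3, Pard6b and Mark2) and for Llgl1, which was called with Dlg3 over both methods. RefSeq start sites on build GRCm38.p6, the patch release of mm10, were given for 8 of the 10 members, and Llgl2 and Scrib were not matched. Each stretch holds 250 bases before a start and reads 5′ to 3′ on the strand of the gene. Capitals mark CAGGTG, an E-box core that repressors of the Snail and Zeb families can bind, and GGGCGG, the GC box of Sp1, on either strand. The stretches are Dlg3 on the plus strand (chrX:100774245-100774494), Pard6b on the plus strand (chr2:168080754-168081003), Mark2 on the minus strand (chr19:7341861-7342110) and Llgl1 on the plus strand (chr11:60699450-60699699).
Dlg3: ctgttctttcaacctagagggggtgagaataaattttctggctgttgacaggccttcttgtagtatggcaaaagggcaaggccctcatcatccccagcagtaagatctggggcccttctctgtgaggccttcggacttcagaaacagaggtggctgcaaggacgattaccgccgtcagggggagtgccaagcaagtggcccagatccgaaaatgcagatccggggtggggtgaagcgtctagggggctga
Pard6b: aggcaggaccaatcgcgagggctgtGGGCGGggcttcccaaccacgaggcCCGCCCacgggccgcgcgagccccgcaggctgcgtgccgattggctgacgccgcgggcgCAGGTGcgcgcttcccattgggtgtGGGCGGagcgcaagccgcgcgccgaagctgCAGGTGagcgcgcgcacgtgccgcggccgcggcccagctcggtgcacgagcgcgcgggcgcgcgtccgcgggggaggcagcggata
Mark2: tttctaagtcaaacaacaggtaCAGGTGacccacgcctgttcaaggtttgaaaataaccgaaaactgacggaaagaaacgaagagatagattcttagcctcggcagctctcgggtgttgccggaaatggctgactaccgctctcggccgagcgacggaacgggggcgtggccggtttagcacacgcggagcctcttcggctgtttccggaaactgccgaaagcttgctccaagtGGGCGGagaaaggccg
Llgl1: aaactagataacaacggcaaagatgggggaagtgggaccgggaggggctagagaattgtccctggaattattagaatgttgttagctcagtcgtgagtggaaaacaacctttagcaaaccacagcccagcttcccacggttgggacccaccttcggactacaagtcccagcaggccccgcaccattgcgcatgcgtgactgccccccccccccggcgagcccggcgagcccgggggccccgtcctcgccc
Pard6b had 2 matches to the E-box core and 3 to the GC box, and Mark2 had 1 of each. Dlg3 and Llgl1 had no match to either. Over all 32851 stretches of the same length, 17.2% held the E-box core and 32.7% the GC box. Pard6b had 43 CpG dinucleotides in this stretch, Mark2 22, Llgl1 15 and Dlg3 7, against a median of 6 over all stretches. The Dlg3 start shown lies 6773 bases downstream of the start given for the gene in the deposited table, and the other 3 lie within 23 bases of theirs. Bases just after the start were found in an annotated transcript of the gene for Pard6b and Mark2. For Dlg3 and Llgl1 they were not found in one.

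The level of Ptk2 was examined first as a check of the labels. It averaged 1.08 ± 0.159 FPKM in hepatocyte KO against 5.91 ± 0.369 FPKM in hepatocyte WT libraries, and 1.31 ± 0.145 FPKM in tissue KO against 5.22 ± 1.24 FPKM in tissue WT (SD, n = 4 each). It averaged 2.16 ± 0.168 FPKM in Bred KO against 6.50 ± 1.66 FPKM in Bred WT, and 2.81 ± 0.336 FPKM in Virus KO against 5.99 ± 0.545 FPKM in Virus WT livers (SD, n = 3 each). No KO library overlapped its WT group. Library totals ran from 11162678 to 20428773 counts. FPKM, fragments per kilobase of gene scaled to the counts of the library, gives levels that can be compared between genes. Tests used the counts in edgeR with TMM scaling, and a gene was called at a Benjamini-Hochberg adjusted p under 0.05. Replicates are separate libraries, and no source used here ties each one to its own animal, so the p-values measure the spread between these libraries. In tissue libraries, fewer cells of a type and less RNA per cell cannot be told apart.

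The 10 members differed in level by more than an order of magnitude in unfed livers. In hepatocyte KO libraries Pard3, the scaffold of the Par complex, was highest with 18.1 ± 1.15 FPKM, followed by Dlg1 with 13.3 ± 0.742 FPKM and Llgl2 with 12.2 ± 1.65 FPKM. In hepatocyte WT libraries Pard3 had 17.6 ± 1.52, Llgl2 13.4 ± 2.62 and Dlg1 12.8 ± 0.340 FPKM (SD, n = 4 in each group). Libraries of Dlg1 and Llgl2 overlapped in either group. Scrib had 6.19 ± 0.840 FPKM in hepatocyte KO and 6.05 ± 0.703 FPKM in hepatocyte WT, and Mark2 had 5.90 ± 0.944 FPKM in hepatocyte KO and 5.38 ± 0.142 FPKM in hepatocyte WT. Prkci, which encodes an atypical protein kinase C, had 4.64 ± 0.624 FPKM in hepatocyte KO and 4.31 ± 0.406 FPKM in hepatocyte WT. Pard6b, the Par6 adaptor that binds this kinase, had 3.41 ± 0.494 FPKM in hepatocyte KO and 3.46 ± 0.740 FPKM in hepatocyte WT, and Dlg3 had 3.35 ± 0.646 FPKM in hepatocyte KO and 3.35 ± 0.232 FPKM in hepatocyte WT. The lowest were Llgl1 with 1.57 ± 0.254 FPKM in hepatocyte KO and 1.57 ± 0.492 FPKM in hepatocyte WT, and Dlg5 with 1.17 ± 0.219 FPKM in hepatocyte KO and 1.29 ± 0.244 FPKM in hepatocyte WT. In hepatocyte KO libraries the ranges of neighbors in this order overlapped, except those of Pard3 and Dlg1, of Llgl2 and Scrib, of Prkci and Pard6b and of Dlg3 and Llgl1. In all 8 groups of the series Dlg1, Pard3 and Llgl2 had mean levels above 6 FPKM, and Dlg1 and Pard3 above 10 FPKM.

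**Figure D1:**
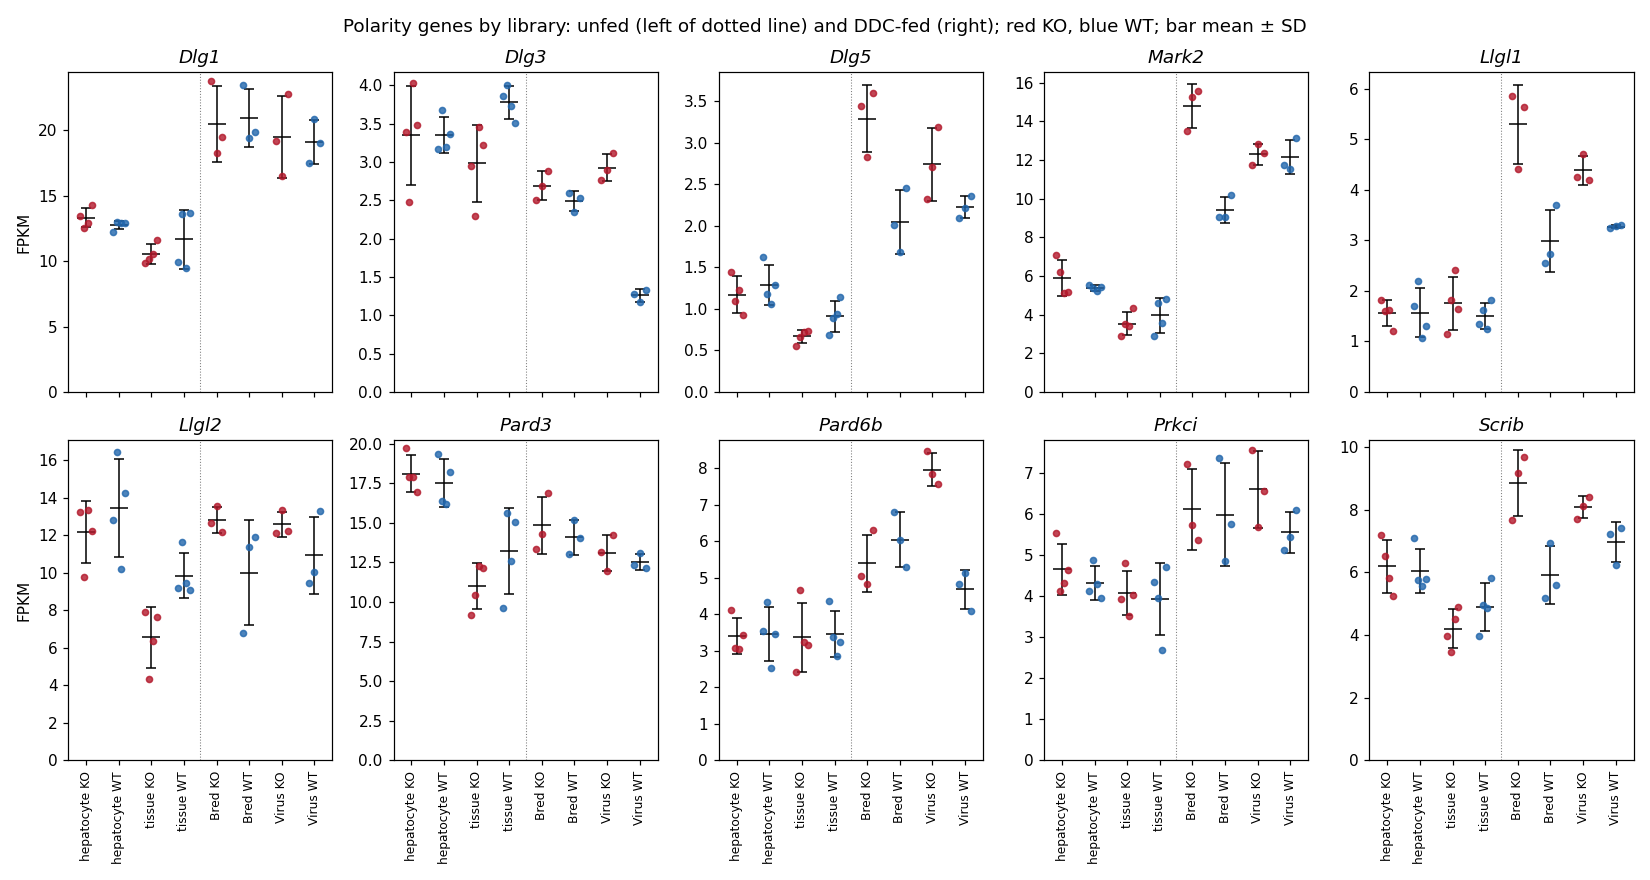
FPKM of each of the 10 polarity genes (vertical axes, linear from 0) in every library, by group (horizontal axis), with KO libraries in red, WT libraries in blue and black bars for the mean and SD (n = 4 unfed, n = 3 fed). Dlg3 lies between 1.17 and 1.33 FPKM in the 3 Virus WT livers and between 2.77 and 3.12 FPKM in the 3 Virus KO livers.

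FAK deletion in unfed mice was followed by no call among the 10 members, in hepatocytes or in tissue. In hepatocytes the log2 fold changes of KO against WT ran from -0.21 (Llgl2) to 0.06 (Mark2) with a median of -0.06, against -0.01 over all genes tested, and 0.32% of 12507 genes tested were called. At an unadjusted p under 0.05 the count in hepatocytes was also 0, against 1119 of 12507 genes tested, and DESeq2 and limma called 0 members. In tissue 8 of 10 members had values below 0, with a median of -0.19 against -0.01 over all genes. An unadjusted p under 0.05 was found in tissue for 3 members, and for 2017 of 12507 genes tested. Only 0.008% of genes tested in tissue were called, which is the single gene Ptk2. Leaving out tissue WT replicate 1 raised the count of genes called from 1 to 994, and DESeq2 called 183 genes, but neither called a member, and limma called 0 members. The 5.14% of genes in tissue and the 5.94% in hepatocytes whose KO and WT groups did not overlap in TMM-scaled counts included 2 members in tissue and 0 in hepatocytes.

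Llgl2, the main Lgl gene of liver by level, had the largest tissue difference of the members. Its 4 tissue KO libraries had 4.32, 6.35, 7.67 and 7.90 FPKM, against 9.08, 9.18, 9.48 and 11.6 FPKM in tissue WT. All KO values lay below all WT values. The log2 fold change was -0.59 with a standard error of 0.18 and an edgeR adjusted p of 0.185, so it was not called, while an exact two-sided permutation test gave 0.0286, the smallest p that 4 against 4 libraries allow. Dlg5, which encodes a Discs large scaffold at cell junctions, had 0.554 to 0.730 FPKM in tissue KO and 0.685 to 1.14 FPKM in tissue WT, ranges that overlapped, and its log2 fold change was -0.45 with a standard error of 0.18 (adjusted p = 0.247), or -0.15 with the trend of each library against gene length removed and the replicate number as a block. Dlg3, another Discs large scaffold, had 2.30 to 3.45 FPKM in tissue KO and 3.51 to 4.01 FPKM in tissue WT, with a log2 fold change of -0.35 (adjusted p = 0.29). The counts of longer genes ran higher in tissue WT replicates 2 and 4 than in the rest of tissue WT (Spearman correlation of deviation with gene length 0.324 and 0.298, against -0.517 and -0.371 in replicates 1 and 3), and all members are longer than the median gene tested, with lengths of 3399 to 7851 bases against 3090 bases. Without those 2 libraries the tissue values of Dlg1 and Mark2 changed sign to 0.05 and 0.07, and no member was called. With hepatocytes and tissue pooled, 0 members and 0.0253% of genes were called, and the difference of the KO effect between hepatocytes and tissue was called for 0 members and for 0% of genes, although 1002 genes had an unadjusted p under 0.05 for that difference, none of them a member. DESeq2 and limma called 0 members in the pooled comparison and for that difference as well.

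On the DDC diet, 3 members rose in Bred KO livers and 1 in Virus KO livers, and none fell. In Bred mice Llgl1, Dlg5 and Mark2 rose, so 3 of 10 members were called in a comparison that called 6.25% of 13955 genes in either direction and 3.17% as higher. In Virus mice Dlg3 alone rose, 1 of 10, where 2.66% of genes were called and 1.41% as higher. Over both methods Dlg3 and Llgl1 were called, 2 of 10 against 6.41% of genes called and 3.26% called higher. The median log2 fold change of the members was 0.12 in Bred mice, 0.07 in Virus mice and 0.17 for the methods together, against medians of -0.008, 0.007 and 0.003 over all genes tested. Some of the members belong to a list of polarity genes that the study chose on these fed livers, so their direction here is not independent evidence. On the FPKM scale the median gene was shifted by 0.12 in Virus KO against Virus WT and by 0.08 in Bred KO against Bred WT (log2), and changes from edgeR are free of this shift.

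Llgl1 encodes Lgl1, the basolateral protein that atypical protein kinase C phosphorylates and displaces from the apical side. Bred KO livers had 4.41, 5.64 and 5.86 FPKM of Llgl1, against 2.54, 2.73 and 3.70 FPKM in Bred WT livers. Virus KO livers had 4.19, 4.25 and 4.71 FPKM, against 3.24, 3.29 and 3.30 FPKM in Virus WT livers. Every KO liver was above every WT liver of its own kind. The log2 fold change was 0.70 in Bred mice (standard error 0.15, adjusted p = 0.0214), 0.26 in Virus mice (standard error 0.15, adjusted p = 0.374) and 0.48 over both methods (standard error 0.10, adjusted p = 0.0215), and the difference between the methods was not called (0.45, adjusted p = 0.287). The Bred call was lost when Bred KO replicate 3 (adjusted p = 0.0606) or Bred WT replicate 1 (adjusted p = 0.0567) was left out. Over all genes, 872 were called in Bred mice, and 316 without Bred KO replicate 3, 315 without Bred WT replicate 1 and 248 without Bred KO replicate 2. The Bred libraries fitted alone called 0 of 13524 genes, not even Ptk2 (adjusted p = 0.0607), with 2360 genes at an unadjusted p under 0.05, so that edgeR fit says nothing about single members. The value of Llgl1 in it was 0.71. The call over both methods was lost without Bred KO replicate 3, Virus KO replicate 1, Virus KO replicate 2 or Virus WT replicate 2, with adjusted p from 0.0517 to 0.0542. In the GENCODE annotation, exons of Llgl1 share 64 of 4862 bases with Flii on the opposite strand, and the strand setting of the counting was not given in the sources used here.

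Mark2, the Par1b kinase, rose in Bred KO livers. They had 13.5, 15.3 and 15.6 FPKM, against 9.04, 9.05 and 10.2 FPKM in Bred WT livers, with no overlap between the groups. The log2 fold change was 0.53 (standard error 0.12, adjusted p = 0.0235). Virus KO livers had 11.7, 12.3 and 12.8 FPKM, against 11.6, 11.7 and 13.1 FPKM in Virus WT livers, and these ranges overlapped. There the log2 fold change was -0.15 (standard error 0.12, adjusted p = 0.537). The Bred effect exceeded the Virus effect by 0.68 on the log2 scale (standard error 0.16, adjusted p = 0.0422), and Mark2 itself was also called lower in Bred WT than in Virus WT livers (-0.40, standard error 0.12, adjusted p = 0.033). This last call was lost in 7 of 13 alternatives, namely limma, no count filter and all single libraries left out but Bred WT replicate 3 (adjusted p from 0.054 to 0.13). The difference between the methods lost its call when any 1 of 11 of the 12 libraries was left out, with adjusted p from 0.055 to 0.125, and kept it without Bred KO replicate 1. The Bred call itself was lost without Bred KO replicate 2 (adjusted p = 0.0795), Bred KO replicate 3 (adjusted p = 0.065) or Bred WT replicate 1 (adjusted p = 0.057).

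Dlg5 also rose in Bred KO livers, and Scrib came near the threshold. Dlg5 had 2.83, 3.44 and 3.60 FPKM in Bred KO livers, against 1.68, 2.01 and 2.45 FPKM in Bred WT livers, and the groups did not overlap. Its log2 fold change of 0.56 passed the test narrowly (standard error 0.15, adjusted p = 0.0469). It no longer passed without Bred KO replicate 1, 2 or 3 or Bred WT replicate 1 or 2 (adjusted p from 0.0648 to 0.137), without the count filter (adjusted p = 0.0559) or after the length trend was removed (0.48, adjusted p = 0.0744). In Virus mice Dlg5 had 2.32, 2.71 and 3.19 FPKM in KO livers and 2.10, 2.21 and 2.36 FPKM in WT livers, ranges that overlapped (log2 fold change 0.13, adjusted p = 0.685). Exons of Dlg5 share 126 of 8491 bases with Gm49098 on the same strand. Scrib, the multidomain scaffold of the Scribble complex, had 7.68, 9.17 and 9.70 FPKM in Bred KO livers, against 5.17, 5.60 and 6.94 FPKM in Bred WT livers. The log2 fold change of Scrib was 0.47 (standard error 0.14) and was not called (adjusted p = 0.0692). Scrib was called in 6 of 14 alternatives, among them DESeq2 (adjusted p = 0.0348) and limma (adjusted p = 0.0352). These 2 fits called 12.4% and 7.24% of all genes. Bred libraries of the same replicate number deviated together, and with the replicate number as a block Scrib was called (0.47, adjusted p = 0.0285), so that 4 members were then called in Bred mice, where the share of all genes called was 12.4% with the block and 6.25% without it. Over both methods the block brought Dlg5 under the threshold (0.35, adjusted p = 0.0361, against 0.0689 without it), where 12.5% of genes were called.

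Dlg3, an X-linked Discs large scaffold, stood apart from the other members. The Virus KO livers had 2.77, 2.89 and 3.12 FPKM, against 1.17, 1.28 and 1.33 FPKM in Virus WT livers. The lowest KO value was above the highest WT value by more than the width of either group. The log2 fold change was 1.05 (standard error 0.13, adjusted p = 0.00242), and it stayed called under all 14 alternatives, with values from 0.80 to 1.08. Bred KO livers had 2.50, 2.69 and 2.88 FPKM, against 2.35, 2.54 and 2.60 FPKM in Bred WT livers, and these overlapped (log2 fold change -0.01, standard error 0.13, adjusted p = 0.973). The difference of Bred minus Virus effects was -1.06 (standard error 0.19, adjusted p = 0.013) and was called under all 19 alternatives. Bred WT livers were above Virus WT livers by 0.95 (standard error 0.13, adjusted p = 0.00112), and KO livers of the 2 kinds did not differ by a call (-0.11, standard error 0.13, adjusted p = 0.666). In level, the Virus WT livers lay below all livers of the other 3 fed groups. The unfed libraries of either material had 2.30 to 4.03 FPKM of Dlg3, so all 3 Virus WT livers were the lowest of the 28 libraries. Xist was at most 0.0148 FPKM and Ddx3y, a gene of the Y chromosome, between 9.11 and 21.8 FPKM in all 28 libraries. Every library thus held transcripts of the Y chromosome.

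Pard6b had KO effects of opposite sign under the 2 methods, and their difference was called. Virus KO livers had 7.58, 7.82 and 8.46 FPKM, against 4.09, 4.82 and 5.12 FPKM in Virus WT livers, and the groups did not overlap. The log2 fold change was 0.60 (standard error 0.15) and narrowly missed the threshold (adjusted p = 0.0501). It was called with DESeq2 (adjusted p = 0.00925), limma (adjusted p = 0.0222), no count filter (adjusted p = 0.0492) and the Virus libraries alone (adjusted p = 0.0217). Bred KO livers had 4.84, 5.03 and 6.30 FPKM, against 5.29, 6.03 and 6.79 FPKM in Bred WT livers, with overlap (log2 fold change -0.29, standard error 0.15, adjusted p = 0.245). The difference of Bred minus Virus effects was -0.89 (standard error 0.21, adjusted p = 0.0381). Its size ran from -0.98 to -0.79 over 19 alternatives, and it lost its call in 10 of them, among them the leaving out of 9 of the 12 libraries in turn (adjusted p from 0.0544 to 0.114).

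The other 4 members were not called on the diet under either method. Dlg1, the Discs large gene of highest level, had a log2 fold change of -0.16 in Bred and -0.14 in Virus mice (standard error 0.14 each). Pard3 had -0.04 in Bred and -0.10 in Virus mice (standard error 0.12 each). Prkci had -0.09 in Bred and 0.08 in Virus mice (standard error 0.17 each), and Llgl2 had 0.24 in Bred and 0.04 in Virus mice (standard error 0.19 each). Their adjusted p lay between 0.475 and 0.936.

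**Figure D2:**
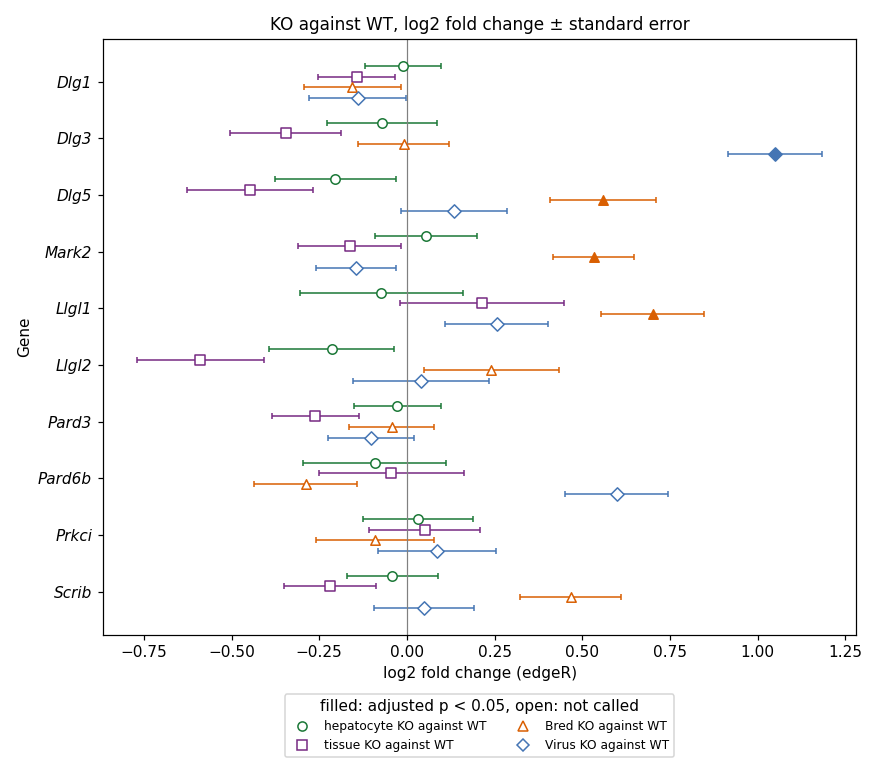
Log2 fold change of KO against WT from edgeR (horizontal axis, with its standard error as bars) for each polarity gene (vertical axis) in hepatocytes, tissue, Bred and Virus livers, with filled symbols for an adjusted p under 0.05. The 3 filled Bred symbols are Llgl1 at 0.70, Dlg5 at 0.56 and Mark2 at 0.53, the 1 filled Virus symbol is Dlg3 at 1.05, and no hepatocyte or tissue symbol is filled.

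Between the deletion methods, 3 of 10 members (Dlg3, Mark2 and Pard6b) differed in their KO effect, where 3.21% of genes did. Of the WT livers, 2 of 10 members (Dlg3 and Mark2) differed between Bred and Virus mice, against 16.4% of genes, a share near the background. Of the KO livers, 0 of 10 did, against 3.02% of genes. In the last comparison 2 members had an unadjusted p under 0.05, as did 3003 of 13955 genes tested. DESeq2 called 1 member there, against 7.79% of genes. On TMM-scaled counts, the KO and WT groups of 3 members in Bred mice and of 4 in Virus mice did not overlap, where 24.5% and 32.3% of all genes did not, so these counts were also near the background. Bred and Virus mice differ in the cells that lose FAK, in the time of its loss and in the Cre or Null vector that only Virus mice were given, and these cannot be told apart. Whether both kinds were fed DDC for the same number of weeks or at the same age was not given per library in the sources used here, so a difference in either cannot be told apart from the method. An exact permutation test of a single gene cannot go below 0.1 with 3 against 3 livers, and no fed result rests on one.

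Markers of other cells moved with the Bred comparison. Of 10 stellate cell and fibroblast markers, 4 rose in Bred KO livers (Col3a1, Des, Pdgfrb and Thy1), against 3.17% of genes called higher. None fell, and the median log2 fold change of these markers was 0.90. Their summed level was 363 to 429 FPKM in Bred KO against 153 to 236 FPKM in Bred WT livers, and 246 to 318 FPKM in Virus KO against 164 to 221 FPKM in Virus WT livers. In Virus mice 1 of these markers rose (Lrat, 0.93), against 1.41% of genes, and over both methods 5 did, against 3.26%. The macrophage markers summed to 244 to 302 FPKM in Bred KO against 177 to 192 FPKM in Bred WT livers, with 0 of 6 called, and the biliary markers summed to 54.1 to 123 FPKM in Bred KO against 85.2 to 112 FPKM in Bred WT livers, with 0 of 7 called. Endothelial markers summed to 66.8 to 72.3 FPKM in Bred KO against 54.1 to 64.05 FPKM in Bred WT livers, with 0 of 6 called. No marker of these lists was at 0 throughout a fed group. Their part in the changes of Llgl1, Mark2 and Dlg5 was not tested.

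Isolated hepatocytes had more of several polarity transcripts than whole liver. In KO mice 6 of 10 members were called, all higher in hepatocytes, against 44.1% of genes called and 20.2% called as higher. The correlation of deviation with gene length was 0.133 to 0.358 in hepatocyte KO and -0.533 to -0.348 in tissue KO libraries, without overlap, and after the length trend was removed 4 members were called, against 22.1% of genes called as higher. In WT mice 3 were called, all higher, against 25.4% called and 9.81% called as higher. The correlation with gene length was 0.369 to 0.47 in hepatocyte WT and -0.517 to 0.324 in tissue WT libraries, without overlap. After the trend was removed, 11.8% of genes were called as higher in WT mice, and Dlg5 was no longer among them. Pard3 had 16.9, 17.9, 17.9 and 19.7 FPKM in hepatocyte KO, against 9.18, 10.5, 12.1 and 12.3 FPKM in tissue KO libraries, without overlap. Its log2 difference of hepatocytes minus tissue was 0.69 in KO (standard error 0.12, adjusted p = 0.000642) and 0.46 in WT mice (standard error 0.12, adjusted p = 0.0157). Mark2 had 5.13 to 7.10 FPKM in hepatocyte KO against 2.88 to 4.34 FPKM in tissue KO, a difference of 0.71 (standard error 0.15, adjusted p = 0.00145), and the WT difference was 0.49 (adjusted p = 0.0242). Dlg5 was higher by 0.78 in KO (adjusted p = 0.00247) and by 0.54 in WT hepatocytes (adjusted p = 0.034), but after the length trend was removed neither was called (0.39 and 0.31, adjusted p = 0.0846 and 0.2).

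In KO mice alone, Llgl2 was higher in hepatocytes by 0.86 (standard error 0.18, adjusted p = 0.0015), Scrib by 0.53 (standard error 0.13, adjusted p = 0.00429, and 0.32 after the length trend was removed) and Dlg1 by 0.31 (standard error 0.11, adjusted p = 0.0284). The WT differences were 0.49 for Llgl2 (adjusted p = 0.0528), 0.35 for Scrib (adjusted p = 0.0571) and 0.18 for Dlg1 (adjusted p = 0.231). The call of Dlg1 was lost in 8 of 16 alternatives, namely after the length trend was removed (0.21, adjusted p = 0.0883, and with the block 0.20, adjusted p = 0.111), without the count filter (adjusted p = 0.0617) and without hepatocyte KO replicate 3 or 4 or tissue KO replicate 1, 2 or 3 (adjusted p from 0.0503 to 0.0727). Whether KO and WT mice differ in this contrast is the difference of the KO effects between materials given above, which was called for 0 members. The WT count was 1 without hepatocyte WT replicate 1, tissue WT replicate 1 or tissue WT replicate 3, where 14.5%, 13.6% and 12.3% of genes were called. It was 5 without tissue WT replicates 2 and 4 together, where 38% of genes were called. Dlg3, Llgl1, Pard6b and Prkci had differences between -0.19 and 0.18 and were not called. Non-hepatocyte markers were lower in hepatocytes, with the summed biliary list at 6.78 to 12.03 FPKM in hepatocyte KO against 21.8 to 29.1 FPKM in tissue KO, and at 7.04 to 8.93 FPKM in hepatocyte WT against 11.3 to 19.1 FPKM in tissue WT. Krt7 was at 0 in both hepatocyte groups and Cftr in hepatocyte WT.

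**Figure D3:**
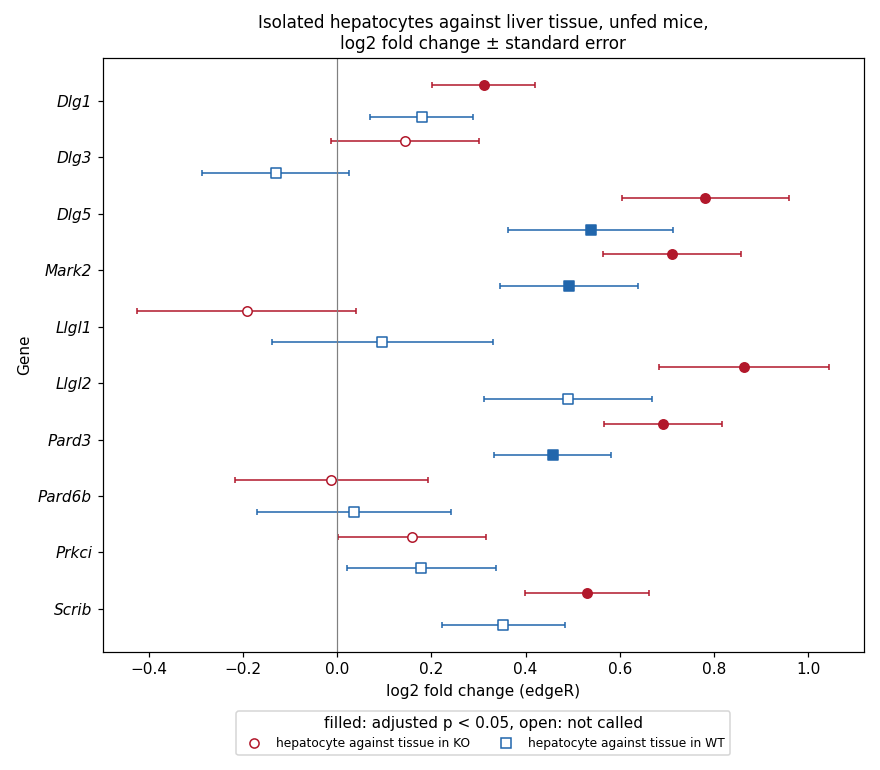
Log2 fold change of isolated hepatocytes against whole liver from edgeR (horizontal axis, bars for the standard error) for each polarity gene (vertical axis) in KO mice (red circles) and WT mice (blue squares), filled at an adjusted p under 0.05. All 6 filled KO symbols lie right of 0, from 0.31 (Dlg1) to 0.86 (Llgl2), and the 3 filled WT symbols are Dlg5, Mark2 and Pard3.

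The fed and unfed tables were not tested against each other, and their FPKM are set side by side. Mark2 averaged 14.8, 9.43, 12.3 and 12.1 FPKM in Bred KO, Bred WT, Virus KO and Virus WT livers, and 3.53 and 3.96 FPKM in unfed tissue KO and tissue WT. Dlg1 averaged 19.2 to 20.9 FPKM over the fed groups and 10.5 to 11.7 FPKM over the unfed tissue groups. Llgl1 averaged 2.99 to 5.30 FPKM in the fed groups and 1.51 to 1.75 FPKM in unfed tissue, and Dlg5 averaged 2.05 to 3.29 FPKM in the fed groups and 0.668 to 0.911 FPKM in unfed tissue. In group means Dlg3 ran the other way, with 1.26 to 2.93 FPKM in the fed groups and 2.98 to 3.78 FPKM in unfed tissue. Its tissue WT libraries (3.51 to 4.01 FPKM) lay above all fed livers. Its tissue KO libraries (2.30 to 3.45 FPKM) overlapped Bred KO, Bred WT and Virus KO livers, and only Virus WT livers lay below them all. Pard3 averaged 12.5 to 14.9 FPKM in the fed groups and 11.01 to 13.2 FPKM in unfed tissue, with overlapping libraries.

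The balance of the Lgl paralogues differed among the groups. The FPKM of Llgl2 divided by that of Llgl1 was 2.47 ± 0.531 in Bred KO against 3.35 ± 0.762 in Bred WT livers, and 2.87 ± 0.040 in Virus KO against 3.34 ± 0.602 in Virus WT livers (SD, n = 3 each). It was 7.92 ± 1.68 in hepatocyte KO against 8.86 ± 1.64 in hepatocyte WT, and 4.15 ± 2.10 in tissue KO against 6.64 ± 1.15 in tissue WT libraries (SD, n = 4 each). The libraries of KO and WT overlapped in this ratio in Bred mice, tissue and hepatocytes. In Virus mice they did not, with 2.84 to 2.92 in KO livers and 2.93 to 4.03 in WT livers. The ratio was chosen after the values were seen and was not tested.

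**Figure D4:**
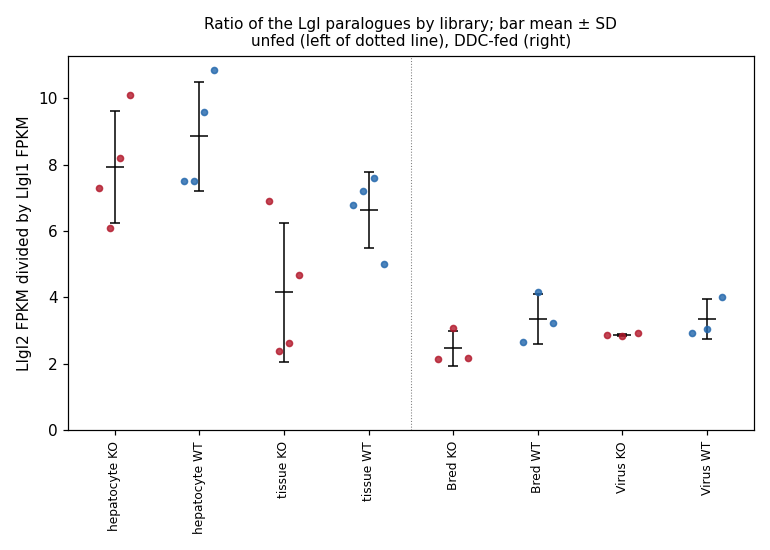
Llgl2 FPKM divided by Llgl1 FPKM (vertical axis, no unit) in every library, by group (horizontal axis), KO in red and WT in blue, with bars for the mean and SD. The highest group mean is 8.86 in hepatocyte WT and the lowest is 2.47 in Bred KO livers.

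Other polarity and junction genes were counted from lists of the same pathways. Of 11 other partners of Scribble and Dlg tested on the diet, 1 was called in Bred mice, Git1 (0.63, adjusted p = 0.0231). Git1 encodes an adaptor that binds the Scribble complex through beta-PIX. Of all genes tested, 6.25% were called in Bred mice and 3.17% called higher, so a single call is no result about a short list. The call of Git1 was lost in 4 of 14 alternatives, namely without Bred KO replicate 2 or 3 or Bred WT replicate 1 and with the Bred libraries alone. Of 7 other Mark and LKB1 genes 1 was called in Bred mice, Mark4, a Par1 kinase (0.62, adjusted p = 0.0109). Mark4 averaged 17.6 ± 2.18 FPKM in Bred KO against 10.6 ± 0.883 FPKM in Bred WT livers, and 13.0 ± 0.672 FPKM in Virus KO against 12.4 ± 0.387 FPKM in Virus WT livers (SD, n = 3 each). Of 6 other Par complex genes none was called, and the 2 with the smallest p over both methods were Pard6g (1.17, adjusted p = 0.0607) and Cdc42 (-0.20, adjusted p = 0.305). Of 6 Crumbs complex genes none was called, and Crb3 had 0.28 (adjusted p = 0.12) and Mpp5 -0.24 (adjusted p = 0.182) over both methods. Over both methods 1 of these Par genes and 3 of the Crumbs genes had an unadjusted p under 0.05. Of 13955 genes tested, 3548 did. DESeq2 called 1 Par and 0 Crumbs genes there, and limma called 1 of each list, where they called 13% and 12.2% of all genes. In Bred mice 2 Par and 3 Crumbs genes had an unadjusted p under 0.05, as did 3427 of 13955 genes. DESeq2 called 1 of the Crumbs genes in Bred mice, where it called 12.4% of all genes.

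Among 18 planar cell polarity genes, Prickle2 rose in Virus KO livers (1.00, adjusted p = 0.0444) and Vangl2, a membrane protein of this pathway, rose over both methods (0.82, adjusted p = 0.045), at mean levels below 1 FPKM in each fed group. The call of Prickle2 was lost in 6 of 14 alternatives, 5 of them single libraries left out (all but Virus WT replicate 2), and that of Vangl2 in 11 of 19, among them each library left out except Bred KO replicate 1 and Bred WT replicate 3. The median of this list over both methods was 0.33. Its 1 call in either comparison stands against 2.66% of genes called in Virus mice and 6.41% over both methods. Over both methods 7 genes of the list had an unadjusted p under 0.05, as did 3548 of 13955 genes tested. DESeq2 called 4 of the list there and limma 6, where they called 13% and 12.2% of all genes. Of 17 tight junction genes, Cldn1 fell by 0.69 in Bred KO livers (adjusted p = 0.0443) and Cldn14 fell by 1.44 in Virus KO livers (adjusted p = 0.00449), where 3.08% of genes in Bred and 1.25% in Virus mice were called lower. The Cldn1 call was lost in 7 of 14 alternatives, 5 of them single libraries left out (all but Bred WT replicate 2), and the Cldn14 call in 0 of 14. Cldn14 averaged 11.2 ± 1.05 FPKM in Virus KO against 27.2 ± 2.60 FPKM in Virus WT livers, and 11.5 ± 3.15 FPKM in Bred KO against 7.17 ± 0.661 FPKM in Bred WT livers (SD, n = 3 each). Of 11 adherens junction genes 1 was called, against 1.41% of all genes called higher in Virus mice. It was Nectin3, which rose in Virus KO livers (0.55, adjusted p = 0.0391). Its call was lost in 8 of 14 alternatives, among them each of the 6 Virus libraries left out in turn.

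Of 13 genes of the canalicular membrane, the apical surface of hepatocytes, none rose on the diet. In Bred mice 2 fell, against 3.08% of all genes, over both methods 2 fell, against 3.15%, and in Virus mice 0 were called by edgeR. In Virus mice 2 had an unadjusted p under 0.05, as did 2612 of 13955 genes tested. DESeq2 called 1 there and limma 0, where they called 6.7% and 3.81% of all genes. Dpp4, a peptidase of that membrane, fell by 0.88 in Bred KO livers (adjusted p = 0.00588) and by 0.53 over both methods (adjusted p = 0.00736). It averaged 14.5 ± 2.28 FPKM in Bred KO against 24.5 ± 1.44 FPKM in Bred WT livers (SD, n = 3 each). Rdx, which encodes radixin, the linker of canalicular transporters to actin, fell by 0.45 in Bred KO livers (adjusted p = 0.0364), a call lost in 8 of 14 alternatives, among them each Bred library left out except Bred WT replicate 3. Abcc2, the canalicular exporter of conjugated bilirubin, fell by 0.66 over both methods (adjusted p = 0.0243), a call lost in 7 of 19 alternatives, namely limma and without Bred KO replicate 3, any Virus KO replicate or Virus WT replicate 1 or 3. The median of the list was -0.24 in Bred and -0.18 over both methods. No gene of these 8 lists was called by edgeR or limma for KO against WT in unfed tissue or hepatocytes. DESeq2 called 0 of them in hepatocytes, where it called 1.18% of all genes. In tissue it called 5 of them, Stk11, Rab11a, Celsr1, Tjp3 and Cgn, where it called 1.86% of 9816 genes.

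The genes with profiles most like those of Dlg3 and Llgl1 were sought over all 28 libraries among 12272 genes, with log2(CPM + 1) set to mean 0 and SD 1 within each table. For Dlg3 the smallest root mean square differences were those of Tmem131l (0.656), Dph7 (0.662) and Patz1 (0.67), and the closest member was Llgl2 (1.12). For Llgl1 they were Lzts2 (0.646), P3h2 (0.717) and Dusp10 (0.776), and the closest member was Dlg5 (1.04). The measure is a description of these libraries, which share depth and scaling within a table.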

How the data were processed

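RNA was sequenced from liver tissue and isolated hepatocytes after removal of ribosomal RNA. Per the methods and labels, the authors used STAR for alignment to mm10 and HTSeq 0.6.1 to obtain gene counts, and the deposited tables hold these counts and the FPKM the authors made from them. FPKM recomputed from the deposited counts differed by at most 4.98e-10 percent. The strand setting was not given in the sources used here. The members and gene lists were chosen with earlier results of these data known.

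A model of 4 groups per experiment was fitted in edgeR 4.0.16 under R 4.3.3 by quasi-likelihood, after TMM normalization. The filterByExpr filter, set to a count of at least 10 and a total of at least 15, kept 12507 genes of the unfed table and 13955 of the DDC table (11857 with the unfed materials pooled). Benjamini-Hochberg adjustment ran over all genes tested, and calls were made under 0.05. Overlap of groups and exact permutation tests used log2(CPM + 1) with TMM-scaled totals. FPKM ranges in the text can therefore touch where the counts do not. Genes named outside the 10 members are Ptk2, members of other polarity and junction lists called in a KO comparison (otherwise the 2 with the smallest p over both methods), markers whose summed level moved, and the 3 genes closest in profile to each member called over both methods.

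Alternatives were DESeq2 1.42.0, its size factors, no count filter, limma 3.58.1 on log2(FPKM + 1), the replicate number as a block, removal of the gene length trend by splines with 5 degrees of freedom (also with the block), the 2 groups alone, tissue WT replicates 2 and 4 left out together, and each library left out in turn. Same-numbered Bred KO and WT libraries deviated together (correlations 0.348 to 0.386, other pairs -0.298 to -0.071). The labels state no pairing, so the pairing of Bred libraries comes from this correlation. Same-numbered pairs of the other groups were not all above 0.1. No replicate was a copy of another (chi-square per degree of freedom at least 14). The fits were also run on simulated counts. These had less spread between replicates than the libraries here and no length trend, so they do not gauge errors on these data.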

Additional observations from a re-analysis of the deposited data

Results flagged for a closer look

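A library stood apart within its group of 4 in 2 of 40 tests of the unfed member levels, against about 1 in 20 by chance. Llgl2 had 11.6 FPKM in tissue WT replicate 2, above the other 3 libraries of its group, and Scrib had 7.09 FPKM in hepatocyte WT replicate 1, again the highest.

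The KO effect differed between Bred and Virus mice by the edgeR test of the difference itself for 3 members, with log2 differences of Bred minus Virus of -1.06 for Dlg3, 0.68 for Mark2 and -0.89 for Pard6b. Among the genes named from other lists the differences were -0.77 for Nectin3 (adjusted p = 0.0363), -0.69 for Dpp4 (adjusted p = 0.0463), 0.71 for Mark4 (adjusted p = 0.0292) and 2.02 for Cldn14 (adjusted p = 0.00437). Of 19 alternatives, the call was lost in 12 for Nectin3, 14 for Dpp4, 9 for Mark4 and 0 for Cldn14.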

How the results depend on the processing

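Of 207 recomputed counts of members called, 172 stayed within 1.5 times the reported count. In Bred mice the count was 0 with the 2 groups alone, a setting that called 0 of all genes. In Virus mice it was 2 with DESeq2, limma, no count filter or the 2 groups alone. These settings called 6.7%, 3.81%, 2.47% and 9.72% of all genes, against 2.66% in the reported fit. Over both methods limma called 5, where it called 12.2% of genes (10.9% higher) against 6.41% with edgeR. Between Bred and Virus WT livers limma and no count filter called 1, where 14.4% and 10.1% of genes were called. In KO livers DESeq2 called 1, against 7.79% of genes. Between hepatocytes and tissue in WT mice DESeq2 called 5, limma 1, and 5 were called without tissue WT replicates 2 and 4. These settings called 26.5%, 24.9% and 38% of all genes, against 25.4% in the reported fit. With single libraries left out the counts ran from 0 to 3 in Bred mice, 1 to 3 over both methods, 1 to 2 for the difference between methods, 1 to 2 between Bred and Virus WT livers and 1 to 4 between hepatocytes and tissue in WT mice. The replicate block gave 4 members in Bred mice and 3 over both methods, where it called 12.4% and 12.5% of all genes. For hepatocytes against tissue in WT mice it gave 2, where it called 24% of genes and Dlg5 was lost (adjusted p = 0.0546). Outside Bred mice the libraries share only a number. The cause of these shifts was not tested.

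Of 1037 recomputed log2 values of single members, 881 kept direction and call, 72 lost the call, 16 gained it and 68 changed sign. No value called in the text changed sign. The sign changes in hepatocytes were those of Dlg1 with DESeq2 (0.0011), its size factors (4.02e-04), the length trend removed (0.067, with the block 0.062), limma (0.056) and the 2 tissue WT libraries left out (0.0061), of Dlg3 with the length trend removed (0.018), of Llgl1 with limma (0.011) and the length trend and block (0.016), and of Pard3 and Scrib with limma (0.045 and 0.025), the length trend (0.073 and 0.050) and the length trend and block (0.078 and 0.054). In tissue they were Dlg1 (0.054) and Mark2 (0.068) without the 2 tissue WT libraries. In Virus mice they were Dlg1 (0.018), Mark2 (0.019) and Pard3 (0.058) with limma, and Llgl2 (-0.034 and -0.023), Prkci (-0.0031 and -0.0066) and Scrib (-0.043 and -0.042) with the length trend removed, without and with the block. In Bred mice they were Dlg3 with the 2 groups alone (9.77e-04), and Dlg3 (0.077), Pard3 (0.067) and Prkci (0.032) with limma, which over both methods also gave Pard3 0.063 and Prkci 0.12.

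With 1 library left out the sign changed within these ranges. In hepatocytes they were Dlg1 -0.047 to 0.0092, Dlg3 -0.19 to 0.044, Mark2 -0.019 to 0.11, Llgl1 -0.21 to 0.12, Pard3 -0.066 to 0.015, Pard6b -0.21 to 0.024, Prkci -0.035 to 0.086 and Scrib -0.094 to 0.034. In tissue they were Pard6b -0.25 to 0.12 and Prkci -0.087 to 0.14, in Bred mice Dlg3 -0.067 to 0.068, Pard3 -0.11 to 0.052 and Prkci -0.22 to 0.086, in Virus mice Llgl2 -0.049 to 0.19, Prkci -0.028 to 0.17 and Scrib -0.016 to 0.089, and over both methods Prkci -0.066 to 0.086.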
